A study of Ovis aries with 60 samples.

Results

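Sperm RNA of sheep was examined for testis forms of glycolytic enzymes and of the glycerol kinase family, and for somatic forms of glycolytic enzymes. The genes were chosen by name, as rows of the gene count table, and 9 were sought. The testis forms were GAPDHS, PGK2, LDHC, GK2 and ENO4, and the somatic forms were GAPDH, PGK1, LDHA and LDHB. The table held 28525 genes and a row under the symbol of 8 of the 9 genes. None was found under the symbol LDHC, which may stand under another identifier, so that LDHC was not analysed here and all shares and ratios of testis forms leave it out. All 8 passed the filter, a minimum of 15 counts in over 10 of the rams, which left 13577 genes. The lowest counts of a library were 0 for LDHA, 2 for GK2 and PGK1, 3 for ENO4, 4 for PGK2, 6 for LDHB, 10 for GAPDHS and 31 for GAPDH.

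Polypay rams of the F0 generation came from male twin pairs, in which one twin received rumen-protected methionine from weaning to puberty and the other the control diet. F1 and F2 animals of both lines were on the control diet, and the ewes they descend from were untreated. RNA was sequenced from semen of 20 F2 rams, 10 grandsons of methionine-fed rams (the methionine line) and 10 grandsons of control rams (the control line), with 2 F2 rams per F0 sire. The F2 generation was bred from 1 F1 son of each F0 sire, so that the 2 F2 rams of an F0 sire also share their F1 sire. Sperm DNA of the same 20 rams, of 10 F0 rams and of 10 pools of F1 rams was bisulfite sequenced. Semen was collected by electroejaculation and treated with a somatic cell lysis buffer before RNA extraction. Rams are numbered 1 to 10 within a line, and the numbers carry no meaning across lines. The labels tell the F2 rams apart as animals, and libraries of one line differed by more than sampling noise in all 90 pairs (chi-square per degree of freedom of 11.97 or more).

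Glycolysis splits glucose into pyruvate and yields ATP without oxygen, and sperm use it along the tail, where the enzymes are bound to the fibrous sheath. Germ cells replace several housekeeping isoenzymes by copies that are expressed in spermatocytes and spermatids, some of which arose by retroposition of the somatic gene. GAPDHS carries out the glyceraldehyde-3-phosphate dehydrogenase step, PGK2 the phosphoglycerate kinase step and LDHC the lactate dehydrogenase step in sperm. ENO4 is a sperm form of enolase, and GK2 is a testis form of the glycerol kinase family. The study lists GK2 for a role in spermatogenesis of the mouse.

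Libraries held between 805831 and 13137757 counts, and TMM factors ran from 0.361 to 2.54. Levels are CPM, counts scaled to a common library total with the TMM factor, not divided by gene length, so that a level can be compared between rams but not between genes. The labelled cell type, sperm, was looked at with 37 spermatid and sperm markers, of which 36 were in the table and 27 passed the filter. The filter had already removed markers with few counts, and none of the 27 was at 0 in any ram. Their summed level ran from 588 to 12593 CPM in the methionine line (median 1309) and reached 13383 CPM in the control line (median 1508). Other cells were represented as well, by lists of 28 leukocyte and 24 squamous markers before the filter. Leukocyte markers (26 genes) summed to 281 to 31432 CPM in the methionine line (median 14168) and 194 to 59121 CPM in the control line (median 12176). Squamous epithelium markers (15 genes) summed to 249.7 to 42052 CPM (median 19391) and 181 to 75348 CPM (median 17307). In both lines these medians exceeded that of the spermatid markers, on a scale that is not per length. Methionine-line ram 7 and control ram 10 stood apart with the lowest leukocyte, squamous and simple epithelium sums of their lines, and 3 of the 13 simple epithelium markers were at 0 in methionine-line ram 7. Both are called the leukocyte-poor rams below. The marker relations, the relations between the genes analysed and the comparison of the lines were also run without them. Correlations of other genes with the testis and somatic forms, and differences between rams of one sire, are given over all rams only.

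GAPDHS RNA ran from 4.17 to 142 CPM in the methionine line, with a median of 12.8 CPM, and from 4.03 to 141 CPM in the control line, with a median of 19.6 CPM. Both leukocyte-poor rams held the highest level of their line. In the methionine line rams 4, 5 and 10 followed, with 45.9, 105 and 65.1 CPM, and the other 6 rams lay at or below 17 CPM. GAPDHS was among the more variable genes, with a biological coefficient of variation of 1.01 that exceeded the value of 91.5% of the genes tested.

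GK2 RNA varied widely too. It ran from 1.95 to 69.1 CPM in the methionine line (median 11.2 CPM) and from 0.806 to 74.6 CPM in the control line (median 9.55 CPM), again with the leukocyte-poor rams highest. The lowest level, in control ram 1, rested on 2 counts and lies under the 1.21 CPM that 3 counts are worth in that library. The biological coefficient of variation of GK2 was 0.981.

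PGK2 and ENO4 varied less, with a biological coefficient of variation of 0.676 and 0.507, against a median of 0.628 over all genes tested. PGK2 RNA lay between 4.73 and 29.9 CPM in the methionine line (median 15.2 CPM) and between 1.61 and 35.1 CPM in the control line (median 11.5 CPM). Control ram 3 held the highest PGK2 level of all 20 rams, above both leukocyte-poor rams. ENO4 RNA lay between 1.05 and 8.83 CPM in the methionine line (median 3.46 CPM) and between 2.02 and 7.25 CPM in the control line (median 5.03 CPM). No ram had more than 32 counts of ENO4, and in 9 of 20 rams it had fewer than 15, so that its level was the least precisely known of the 8 genes.

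Among the somatic forms, GAPDH RNA ran from 12.5 to 842 CPM in the methionine line (median 290.5 CPM) and from 20.4 to 926 CPM in the control line (median 347.5 CPM). Both minima belonged to the leukocyte-poor rams. PGK1 RNA ran from 0.808 to 53.1 CPM in the methionine line (median 20.01 CPM) and from 1.66 to 71.3 CPM in the control line (median 18.7 CPM), with the same rams lowest.

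LDHA, which makes the muscle-type subunit of lactate dehydrogenase, had no count in methionine-line ram 7, a library in which 3 counts are worth 1.21 CPM. Elsewhere in that line LDHA lay between 43.3 and 198 CPM, and in the control line it ran from 5.92 to 460 CPM (median 67.4 CPM). Control rams 5 and 10 lay together at 5.92 CPM. Their summed leukocyte markers, 3054 and 194 CPM, were the lowest of the line, against a line median of 12176 CPM. The biological coefficient of variation of LDHA, 1.06, exceeded that of 94.1% of the genes tested.

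LDHB, which makes the heart-type subunit, lay between 3.59 and 23.3 CPM in the methionine line (median 7.44 CPM) and between 3.91 and 16.3 CPM in the control line (median 8.08 CPM). The leukocyte-poor rams had 5.66 and 4.03 CPM of LDHB and neither was the lowest of its line. With a biological coefficient of variation of 0.499, LDHB was less variable than GAPDH (0.938), PGK1 (0.844) and LDHA.

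**Figure D1:**
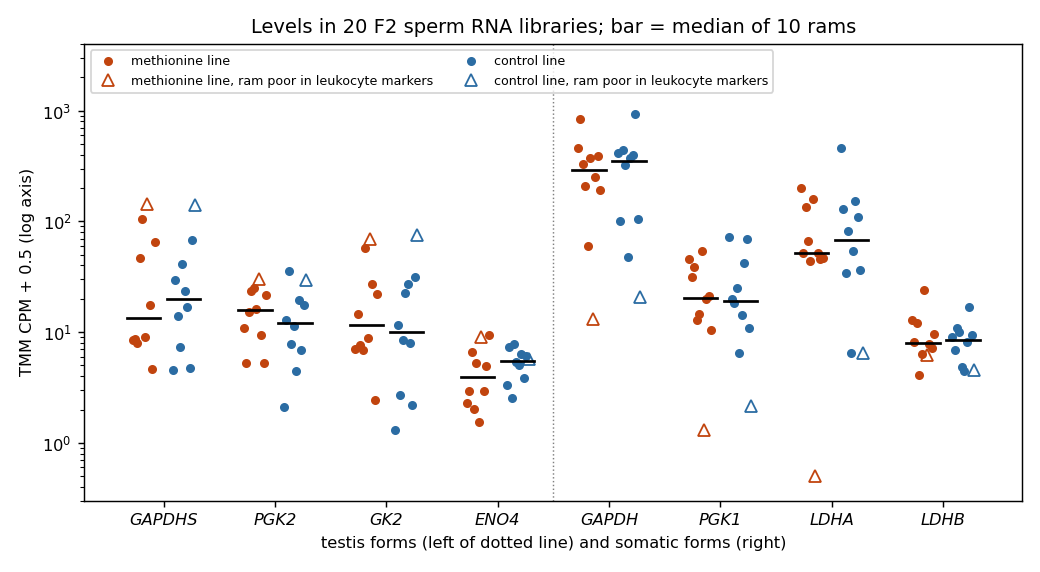
Levels of the 8 genes in the 20 F2 sperm RNA libraries, as TMM CPM plus 0.5 on a log axis. Points are rams, bars are medians of 10 rams of a line, and open triangles are the leukocyte-poor rams, which lie at the top for GAPDHS and GK2 and at the bottom for GAPDH and PGK1 in both lines.

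The testis form was set against the somatic form of the same step within each ram as the log2 ratio of CPM with 0.5 added to each. A ratio within a library does not depend on the normalisation factor, apart from the added 0.5. GAPDHS over GAPDH ran from a ratio of 0.00511 in control ram 8 to 10.96 in methionine-line ram 7. GAPDHS had more counts than GAPDH in 3 rams, methionine-line rams 5 and 7 and control ram 10, which were the 3 rams with the highest summed spermatid markers. On the log2 scale the median was -4.61 in the methionine line and -4.28 in the control line (SD 3.37 and 3.24, n = 10 each).

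PGK2 over PGK1 ran from a ratio of 0.0294 in control ram 1 to 23.2 in methionine-line ram 7. In methionine-line ram 7 the ratio rested on 74 counts of PGK2 and 2 of PGK1, a count ratio of 37 with an exact 95% counting interval of 9.89 to 311. PGK2 had more counts than PGK1 in 8 rams, 4 of each line. The median log2 ratio was -1.21 in the methionine line and -0.88 in the control line (SD 2.19 and 2.49, n = 10 each). The lines overlapped over most of the range in both ratios. LDHC over LDHA and over LDHB could not be formed without LDHC.

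Over all 8 genes, the 4 testis forms together took 0.959% (control ram 1) to 92.9% (methionine-line ram 7) of the summed CPM. The median share was 10.4% in the methionine line and 10.5% in the control line. The 4 testis forms exceeded the 4 somatic forms in 4 rams, methionine-line rams 5 and 7 and control rams 5 and 10. The share is one of counts, and gene lengths in the build of the table were not used here.

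**Figure D2:**
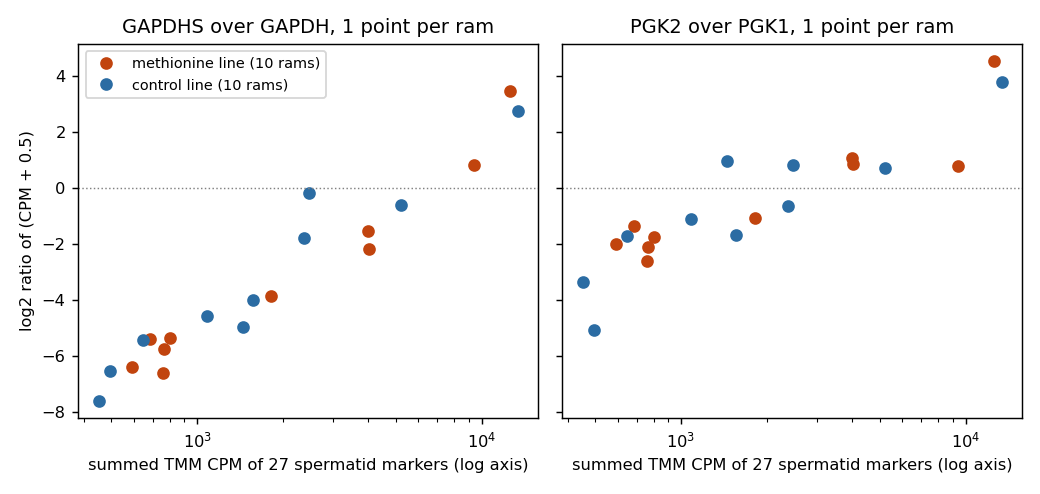
Log2 ratio of GAPDHS over GAPDH (left) and of PGK2 over PGK1 (right), with 0.5 CPM added to each gene, against the summed TMM CPM of 27 spermatid markers on a log axis, 1 point per F2 ram, coloured by line. Points above the dotted line, 3 at left and 8 at right, are rams in which the testis form had more counts, and rams of both lines are mixed along the axis.

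To ask how far each gene followed the makeup of a library, its log2 level was correlated across rams with the log2 summed level of each of 5 marker lists. This gave 40 relations, adjusted together, and 25 (62.5%) passed an adjusted p of 0.05 for Pearson's r. Such relations were common in these libraries. Over all other genes tested and the same lists, 48.5% of the relations were as large as the smallest that passed here (an r of 0.562 in size over 20 rams or 0.536 over 18), 44.5% with the spermatid, 54.1% with the leukocyte, 56.2% with the squamous, 52.3% with the simple epithelium and 35.6% with the testis somatic markers. No test compared the 8 genes with the others. For the leukocyte and both epithelium lists the leukocyte-poor rams were parted from the rest by a gap of over 2 log2 units, and those relations were computed over the other 18 rams. In bulk samples fewer cells of a type and less RNA per cell cannot be told apart, and the values of one library share its depth and its factor.

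GAPDHS followed the spermatid markers with r = 0.987 and Spearman's rho = 0.988 over 20 rams (permutation p = 1e-05 for each, the smallest that these resamples can give, adjusted 5.7e-05 and 0.0002). Without the 2 rams farthest from the median, which were the leukocyte-poor rams, r was 0.983. Within the methionine line r was 0.991 and within the control line 0.983 (10 rams each). GAPDHS was itself not on the marker list.

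GK2 followed the spermatid markers with r = 0.821 and rho = 0.796 (permutation p = 1e-05 and 7e-05, adjusted 5.7e-05 and 0.00035), and r was 0.739 without the leukocyte-poor rams. PGK2 did so with r = 0.689 and rho = 0.726 (permutation p = 0.001 and 0.00052, adjusted 0.0029 and 0.0019), and r was 0.611 without them. Within lines r was 0.802 and 0.858 for GK2, and 0.792 and 0.631 for PGK2, in the methionine and the control line. The PGK2 value of the control line did not pass on its own (permutation p = 0.05, adjusted 0.12).

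ENO4 did not pass with the spermatid markers (r = 0.357, rho = 0.277, permutation p = 0.12 and 0.24, adjusted 0.15 and 0.28). It passed with a list of markers of testis somatic cells and smooth muscle, of which 5 of 13 passed the filter and summed to 25.7 to 61.02 CPM in the methionine line and 28.7 to 73.7 CPM in the control line (r = 0.719, rho = 0.722, permutation p = 0.00039 and 0.0005, adjusted 0.0013 and 0.0019). Without the 2 rams farthest on that axis r was 0.688. With the same list GK2 passed too (r = 0.562, adjusted permutation p = 0.02), though not without the leukocyte-poor rams (r = 0.432, adjusted permutation p = 0.1), and GAPDH fell as it rose (r = -0.64, adjusted permutation p = 0.0058), which missed with no TMM factor (adjusted permutation p = 0.084). The other 5 genes did not pass with it, though with no TMM factor GAPDHS (r = 0.799), PGK2 (0.677) and LDHB (0.662) did, and with a pseudocount of 0.1 PGK1 did narrowly (r = -0.474, adjusted permutation p = 0.0495). ENO4 also fell as the library total rose (r = -0.594, rho = -0.603, permutation p = 0.0064 and 0.006, adjusted over the 8 genes 0.024 and 0.012). GK2 did so too (r = -0.556), whereas GAPDH (0.549), PGK1 (0.571), LDHA (0.491) and LDHB (0.522) rose with it. The adjusted permutation p of these r was 0.024 to 0.032, but by rho LDHA and LDHB missed (0.078 and 0.051). Without the leukocyte-poor rams all of these r missed (adjusted permutation p of 0.056 or more). The TMM factor was 0.361 in the largest library and 2.54 in the smallest. The share of other genes that followed the library total was not computed, so that these relations cannot be read as particular to these genes. With CPM of the plain library total and no TMM factor, ENO4 passed with the spermatid markers too (r = 0.732, adjusted permutation p = 0.0015). The part of depth and of the factor in the relations of ENO4 and of the other genes was not tested further.

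All 4 somatic forms fell as the spermatid markers rose, although LDHB turned with no TMM factor (r = 0.316, adjusted permutation p = 0.25). GAPDH had r = -0.88 and rho = -0.833 (permutation p = 1e-05 and 2e-05, adjusted 5.7e-05 and 0.0002), and PGK1 r = -0.868 and rho = -0.866 (permutation p = 1e-05 for each, adjusted 5.7e-05 and 0.0002). LDHA had r = -0.71 (rho = -0.659, permutation p = 0.00023 and 0.0021, adjusted 0.00084 and 0.0059) and LDHB r = -0.581 (rho = -0.603, permutation p = 0.007 and 0.0057, adjusted 0.015 and 0.014). Without the leukocyte-poor rams r was -0.799 for GAPDH, -0.783 for PGK1, -0.515 for LDHA and -0.505 for LDHB, and LDHB no longer passed (adjusted permutation p = 0.053). LDHA passed at 0.048 over the remaining 18 rams and missed at 0.053 where each list lost its own 2 farthest rams.

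The somatic forms rose with the leukocyte markers over 18 rams, although with no TMM factor LDHB turned (r = -0.0954) and GAPDH missed (r = 0.507, adjusted permutation p = 0.056). PGK1 had r = 0.864 (rho = 0.804, permutation p = 1e-05 and 4e-05, adjusted 5.7e-05 and 0.00032), GAPDH r = 0.83 (rho = 0.833, permutation p = 2e-05 for each, adjusted 0.0001 and 0.0002) and LDHA r = 0.707 (rho = 0.643, permutation p = 0.00096 and 0.0045, adjusted 0.0029 and 0.012). LDHB had r = 0.559 (rho = 0.622, permutation p = 0.016 and 0.0068, adjusted 0.026 and 0.016), which missed without the 2 farthest rams (r = 0.383, adjusted permutation p = 0.18). Without the 2 farthest rams r was 0.789 for PGK1, 0.73 for GAPDH and 0.635 for LDHA. GK2 fell as these markers rose (r = -0.808, rho = -0.794, permutation p = 3e-05 and 0.00022, adjusted 0.00013 and 0.00098). So did GAPDHS (r = -0.789, rho = -0.703, permutation p = 0.00013 and 0.0016, adjusted 0.00052 and 0.0051) and ENO4 (r = -0.536, rho = -0.527, permutation p = 0.022 and 0.026, adjusted 0.036 and 0.042), ENO4 missing with no TMM factor (adjusted permutation p = 0.19). PGK2 did not pass (r = -0.291, rho = -0.15, permutation p = 0.24 and 0.55, adjusted 0.27 and 0.58), but did with no TMM factor (r = -0.674, adjusted permutation p = 0.0054).

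GAPDH also rose with the squamous epithelium markers (r = 0.87, rho = 0.82, permutation p = 1e-05 and 6e-05, adjusted 5.7e-05 and 0.00035) and with the simple and secretory epithelium markers (r = 0.873, rho = 0.833, permutation p = 1e-05 and 7e-05, adjusted 5.7e-05 and 0.00035). The simple epithelium sum ran from 145.5 to 20462 CPM in the methionine line and from 117 to 22135 CPM in the control line. PGK1 passed with both epithelium lists at r = 0.629 and 0.565 (adjusted permutation p = 0.012 and 0.026), but both values turned negative with no TMM factor (-0.131 and -0.144), and the latter missed without the 2 farthest rams (r = 0.416, adjusted permutation p = 0.15). LDHA did not pass with either (r = 0.375 and 0.37, adjusted permutation p = 0.15 for each), nor did LDHB (r = 0.492 and 0.446, adjusted permutation p = 0.054 and 0.081), and all 4 of these values turned negative with no TMM factor. With a pseudocount of 2 LDHB passed narrowly with the squamous markers (adjusted permutation p = 0.0499). The difference between GAPDH and LDHA in these relations was not tested. Of the testis forms, GAPDHS, ENO4 and GK2 fell as the squamous markers rose (r = -0.651, -0.596 and -0.59, adjusted permutation p = 0.0098, 0.02 and 0.021), GK2 missing with no TMM factor (adjusted permutation p = 0.056). GAPDHS also fell as the simple epithelium markers rose (r = -0.574, adjusted permutation p = 0.024), which missed with no TMM factor (adjusted permutation p = 0.22) and without the 2 farthest rams (adjusted permutation p = 0.053). GK2 and ENO4 did not pass with that list (r = -0.476 and -0.503, adjusted permutation p = 0.063 and 0.051), although ENO4 passed with DESeq2 size factors (r = -0.54, adjusted permutation p = 0.032) and narrowly with a pseudocount of 0.1 (0.0495), and both passed narrowly with a pseudocount of 2 (adjusted permutation p = 0.0499). PGK2 lay near 0 with both epithelium lists (r = -0.0863 and -0.083).

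**Figure D3:**
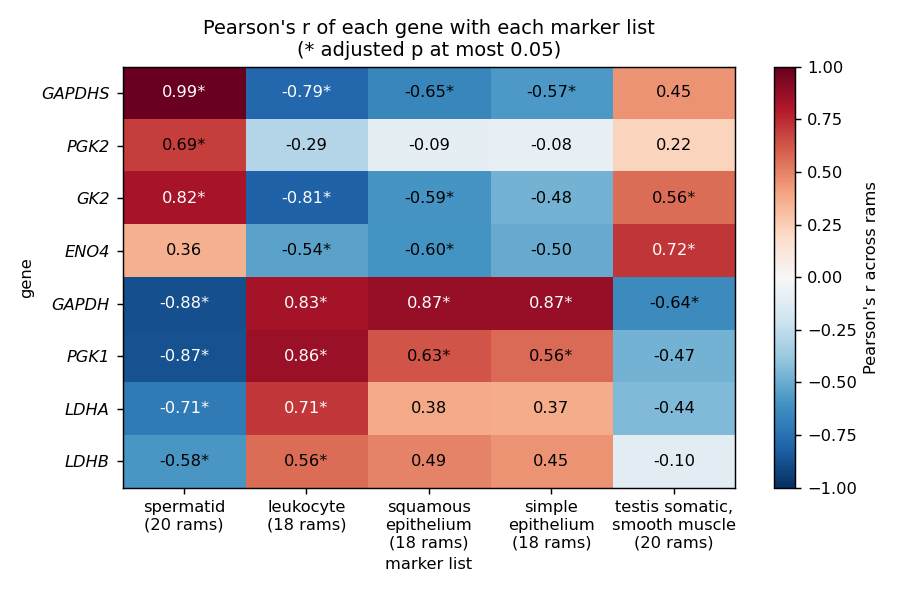
Pearson's r across F2 rams between the log2 level of each gene (rows) and the log2 summed level of each marker list (columns), from -1 (blue) to 1 (red), with an asterisk where the adjusted permutation p was at most 0.05. The spermatid column is positive for the 4 testis forms and negative for the 4 somatic forms, and the leukocyte column has the opposite signs, with LDHB turning in both when no TMM factor is used.

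Levels of the 8 genes were also related to each other. Among testis forms r was positive in all 6 pairs (median 0.442), and 3 passed, GAPDHS with GK2 (r = 0.846, rho = 0.823, permutation p = 2e-05 for each), GAPDHS with PGK2 (r = 0.688, rho = 0.713, permutation p = 0.00082 and 0.00051) and PGK2 with GK2 (r = 0.479, rho = 0.376, permutation p = 0.034 and 0.11, adjusted p of r 0.048). Among somatic forms all 6 pairs were positive (median r = 0.719) and passed, led by PGK1 with LDHA (r = 0.923, rho = 0.86, permutation p = 1e-05 for each). All 16 pairs of a testis with a somatic form were negative (median r = -0.544), and 12 passed over the 28 pairs adjusted together. Large r were common here. Of 13569 other genes, 1573 had an r beyond 0.8 in size with GAPDHS and 2891 with GAPDH. The share over pairs of other genes was not computed, so that these counts are not set against a background. GAPDHS with GAPDH had r = -0.862 (rho = -0.818, permutation p = 1e-05 and 3e-05, adjusted 7e-05 and 0.00021), and r = -0.799 without the 2 rams farthest from the median of GAPDHS. Without the leukocyte-poor rams the numbers that passed fell to 2 of 6, 3 of 6 and 4 of 16, and 1 of the 16 pairs was positive. With no TMM factor the testis forms moved together more closely (6 of 6 pairs passed, median r = 0.762), whereas 3 of 6 somatic pairs passed, none of them with LDHB, and 4 of the 16 mixed pairs were positive, all with LDHB.

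The diet lines were compared over the whole table with edgeR's quasi-likelihood test. None of the 13577 genes passed an adjusted p of 0.05 (0%, with 104 genes at an unadjusted p under 0.05), and DESeq2 also called 0 genes (174 under 0.05). None of the 8 genes was among them, and none had an unadjusted p under 0.05 by either tool. The log2 fold change of the methionine line against the control line was 0.24 for GAPDHS (SE 0.69), 0.14 for PGK2 (SE 0.44), 0.24 for GK2 (SE 0.67) and -0.24 for ENO4 (SE 0.36). For the somatic forms it was -0.01 for GAPDH (SE 0.64), -0.17 for PGK1 (SE 0.56), -0.42 for LDHA (SE 0.73) and 0.21 for LDHB (SE 0.33), and the edgeR adjusted p was 0.9998 for each gene.

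The spread between rams set wide limits on these differences. The 95% interval of the log2 fold change ran from -1.18 to 1.67 for GAPDHS, from -0.78 to 1.05 for PGK2, from -1.14 to 1.61 for GK2 and from -0.99 to 0.5 for ENO4. For LDHA it ran from -1.92 to 1.08 and for LDHB from -0.47 to 0.88. With the leukocyte and squamous marker sums as covariates the interval of GAPDH narrowed from -1.33 to 1.31 to -0.55 to 0.73, and that of PGK1 from -1.32 to 0.99 to -0.39 to 0.72, with no gene called. Without the leukocyte-poor rams the log2 fold change was 0.41 for GAPDHS and 0.46 for GK2, and 0 genes were called.

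**Figure D4:**
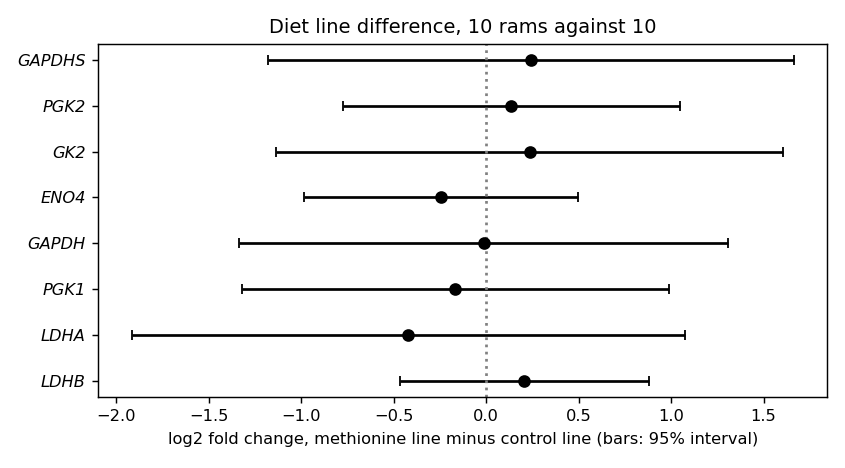
Log2 fold change of each gene in F2 sperm RNA, methionine line minus control line (10 rams against 10), with the 95% interval from the edgeR fit. Each interval spans 0.

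Grandsons of one F0 sire were not alike. In the methionine line the 2 grandsons of 1 sire (rams 6 and 7) had 8.6 and 142 CPM of GAPDHS. In the control line the 2 grandsons of 1 sire (rams 1 and 10) had 4.03 and 141 CPM, the largest log2 difference within a sire (4.96). Each of these pairs holds a leukocyte-poor ram, and the medians below include both of those rams. The median log2 difference between rams of one sire (10 sires) was 2.52 for GAPDHS and 2.47 for GK2, against 1.74 and 1.69 over the 180 pairs of rams of different sires. It was also larger within sires for PGK2 (1.46 against 1.05), ENO4 (0.85 against 0.75), PGK1 (1.61 against 1.28) and LDHB (0.87 against 0.63). For GAPDH (1.22 against 1.36) and LDHA (1.54 against 1.58) it was smaller. These are descriptions without a test.

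Other enzymes and transporters of energy metabolism were taken from a list of 70 genes, of which 62 were in the table and 51 passed the filter. None was called between the lines. Of the 51 genes 16 (31.4%) had a higher level in the methionine line, against 42.8% of all genes tested, and the median log2 fold change was -0.11, against -0.05. Both shares moved with the setting. The share of the list and of all genes was 51% and 47.4% without control ram 1, 51% and 52.1% with the sire block and 54.9% and 56.2% with marker covariates, but 25.5% and 35.8% with upper-quartile factors and 23.5% and 37.9% without methionine-line ram 7. PDK4, a kinase that holds back pyruvate dehydrogenase, was the only gene of the list with an unadjusted p under 0.05 (log2 fold change -0.67, SE 0.32, edgeR adjusted p = 0.9998). The largest log2 fold changes were those of PGAM2 (0.41), BSG (0.3) and CKB (0.25), and the smallest those of EMB (-0.87), HK3 (-0.77) and SLC16A3 (-0.73), all with an adjusted p of 0.9998.

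The 8 genes of the list with the most counts scaled to the library, an order that is not per length, were the glucose transporter SLC2A1 (559 CPM), the 2 forms of phosphofructokinase-2 PFKFB4 (509.7 CPM) and PFKFB3 (275 CPM), the aldolase ALDOA (469 CPM), the glucose transporter SLC2A3 (423 CPM), the somatic glycerol kinase GK (240.2 CPM), the pyruvate kinase PKM (174 CPM) and the hexokinase HK2 (174 CPM). On TMM levels all 8 correlated negatively with the mean standardised level of the 4 testis forms and positively with that of the 4 somatic forms. HK2 had r = -0.861 and 0.873, ALDOA -0.795 and 0.846, and PKM, nearest to 0, -0.52 and 0.546. With no TMM factor PKM turned with the testis forms (r = 0.366), and the other 7 kept both signs.

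Of the 51 genes, 26 lay closer to the testis forms and 25 to the somatic forms. An r over 0.7 was reached with the testis forms by 7 genes and with the somatic forms by 10, which is 13.7% and 19.6% of the list, against 1934 and 2447 of all 13569 genes (14.25% and 18.03%), so that the list was close to the background. The 7 genes, named after their values were seen, were the adenylate kinase AK8, the muscle phosphoglycerate mutase PGAM2, the soluble adenylyl cyclase ADCY10, the testis pyruvate dehydrogenase subunit PDHA2, the muscle enolase ENO3, the monocarboxylate transporter SLC16A1 and the D-lactate dehydrogenase LDHD. Some copies in the list had the same sign of r with the testis forms, and no tally over all steps was made. At several steps, picked after their values were seen, the copies parted. PGAM2 had r = 0.844 with the testis forms and PGAM1 -0.578, PDHA2 0.8 and the somatic PDHA1 -0.765, and ENO3 0.777 and ENO1 -0.738. The hexokinases HK1 (0.657) and HK2 parted as well. Of the other genes of the glycerol kinase family GK had r = -0.682 with the testis forms, of which GK2 is one. GK5 lay near 0 with both forms (0.0453 and 0.0612). With no TMM factor 37 genes lay closer to the testis forms, 26 had an r over 0.7 with them and 3 with the somatic forms. The share over all genes was not computed at this setting, so that these counts cannot be read as particular to the list. PGAM2, PDHA2, ENO3 and HK1 then had r = 0.873 to 0.938 with the testis forms, GK5 had 0.636, and PGAM1, PDHA1 and ENO1 0.0178, -0.0372 and -0.22, so that each pair stayed apart. These values describe 20 rams that share the makeup of their libraries and carry no test.

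Over all other genes tested, those most like the testis forms were SPATA4 (r = 0.959), ZC3HC1 (0.958), FSCB (0.957), GALT (0.951) and DCC (0.95). SPATA4 is a spermatogenesis-associated gene, FSCB encodes a fibrous sheath protein, and GALT is an enzyme of galactose use. Least like them were SNN (r = -0.924), RAB4B (-0.909), TRANK1 (-0.908), LOC114117101 (-0.905) and SYAP1 (-0.904). An r over 0.9 was reached by 491 of 13569 genes with GAPDHS alone, by 15 with GK2, by 1 with PGK2 and by 0 with ENO4. With the somatic forms the numbers were 512 for GAPDH, 95 for PGK1, 18 for LDHA and 0 for LDHB. Of the marker lists, the leukocyte list was led by S100A9 (mean 8567 CPM) and S100A8 (3873 CPM), and the squamous list by KRT78 (11028 CPM) and KRT4 (4136 CPM). SPEM1 (696 CPM) and PRM1 (407 CPM) led the spermatid list, KRT19 (3084 CPM) and MUC1 (1568 CPM) the simple epithelium list, and MYH11 (20 CPM) and SOX9 (10.8 CPM) the testis somatic list.

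DNA methylation could be placed for GK2 alone, the only one of the 9 genes whose interval in the genome build of the bisulfite data, Oar_rambouillet_v1.0, was at hand. No cytosine listed in any generation lay in the GK2 interval. Within 10 kb of it, 6 CG, 26 CHG and 151 CHH cytosines were listed in F0, 4, 22 and 137 in F1, and 0, 12 and 56 in F2. A cytosine was called a differentially methylated cytosine (DMC) at a difference of at least 20 points between the lines over summed reads and an adjusted p of at most 0.01. Of the listed CG cytosines of the whole genome 1.82% were called in F0 and 1% in F1, and of the CHG cytosines 0.0142%, 0.00605% and 0.0306% in F0, F1 and F2. Near GK2 1 CG cytosine was called in F0, none in F1, and no CHG cytosine in any generation.

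One CHH cytosine near GK2 was called in all 3 generations, against 0.0145%, 0.00535% and 0.0266% of all listed CHH cytosines in F0, F1 and F2. It lies on chromosome 6 at position 104141560 on the minus strand, 1411 bp below the lower end of the GK2 interval. GK2 had been marked by the study on these samples for this cytosine, so that the calls are a description and no independent evidence. The level was 0% in each of the 5 methionine-fed F0 rams. In the 5 F0 control rams it was 52%, 58.8%, 0%, 50% and 2.38%, so that 4 rams lay above all methionine-fed rams, 1 of them by 2.38 points, and 1 ram at the same level.

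In F1 the 5 methionine-line pools had 20.6%, 19.2%, 2.22%, 8.7% and 0%, all below the lowest of the control pools, which had 63.04%, 44.4%, 41.2%, 27.8% and 35.7%. In F2 the level ran from 0% to 59.5% in the methionine line (median 0%) and from 0% to 76.2% in the control line (median 48.3%), and the lines overlapped. The 20 F2 rams fell into a set of 9 at 0% to 5.71% and a set of 11 at 35.9% to 76.2%. Of the methionine line 6 rams were in the lower set and 4 in the upper, and of the control line 3 and 7. The nearest listed CHH cytosine, at position 104141564, had means near 0% in the methionine and the control line. They were 0% and 0% in F0, 1.01% and 0% in F1, and 1.14% and 1.07% in F2. A genomic thymine in place of the cytosine reads as unmethylated after bisulfite treatment, and the cases cannot be told apart in these files. The bases around the called cytosine were not examined in each animal, so that its CHH context was not tested.

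The difference over summed reads, methionine minus control, was -33.2 points for F0 rams, -35.1 points for F1 pools and -22.6 points for F2 rams. The calls rest on these sums, which take no account of the spread between animals. With limma on the level of each animal or pool the same differences had an adjusted p of 0.836 in F0, 0.834 in F1 and 0.665 in F2 (unadjusted 0.032, 0.00173 and 0.0585). No DMC remained near GK2 with limma. The share of all listed cytosines that limma called was not recorded, so that this loss cannot be read as particular to GK2. The F0 control rams are twins of the methionine-fed rams. The labels do not say which, and with consecutive sire numbers as the pairs limma gave an adjusted p of 0.842, 0.84 and 0.667 (unadjusted 0.0549, 0.00117 and 0.0578). The level was lower in the methionine line in 4 of 5 such pairs in F0 and equal in 1, lower in all 5 in F1 and lower in 4 of 5 in F2. These pairs are the samples that gave the calls, so that the pair counts are no further evidence. Coverage of the cytosine was 30 to 53 reads per ram in F0, 26 to 54 per pool in F1 and 10 to 48 per ram in F2. The F0 CG cytosine called, at position 104140689 on chromosome 6, had a mean of 98.1% ± 4.33 in methionine-fed and 76.6% ± 21.7 in control rams (SD, n = 5 each). It had a limma adjusted p of 0.992, and it was not called without F0 control ram 1 or 2.

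**Figure D5:**
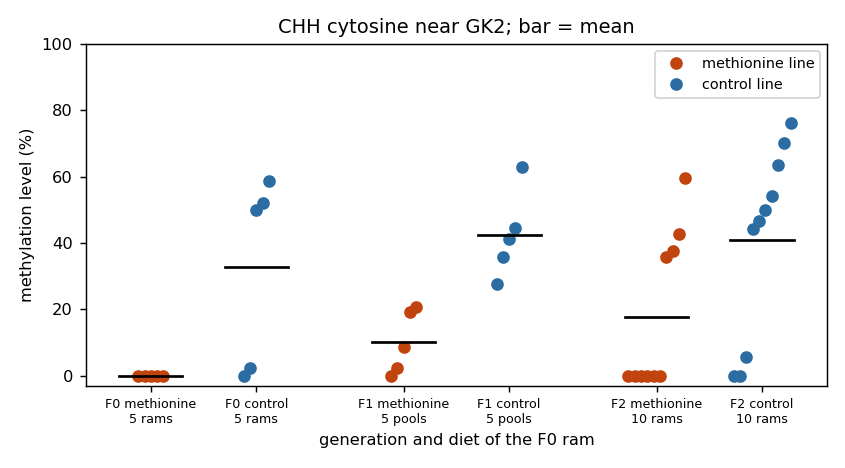
Methylation level of the CHH cytosine on chromosome 6 near GK2 in every F0 ram, F1 pool and F2 ram, in percent, by generation and diet of the F0 ram, with bars at the means. The 5 methionine-fed F0 rams lie at 0%, the F1 pools of the lines do not overlap, and the F2 rams of both lines are spread from 0% up to 59.5% and 76.2%.

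GK2 RNA was set against this level in the 20 F2 rams. Since the levels fell into separate sets, the relation was computed within the upper set only, as 8 of the 9 rams of the lower set were tied at 0%. Over the 11 rams r was -0.108 and rho -0.1 (permutation p = 0.75 and 0.78), and r was -0.144 without the 2 farthest rams. No relation was detected within this set, and whether GK2 RNA differs between the sets was not tested. No CG cytosine near GK2 was listed in F2, so that CG methylation was not related to GK2 RNA.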

How the data were processed

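Semen RNA of 20 F2 rams was used, together with sperm DNA of these rams, of 10 F1 pools and of 10 F0 animals. The authors trimmed RNA reads with Trimmomatic, aligned them with STAR to Oar_rambouillet_v1.0 and deposited raw read counts per gene. The strand setting is not given in the sources used here, and reads of GAPDH, PGK1, PGK2 and LDHA can be shared with near-identical processed copies, so that their counts are uncertain to that extent. Bisulfite reads were trimmed with TrimGalore, aligned with Bismark and deduplicated by the authors, who deposited counts of reads and of methylated reads for each cytosine that reached 10 reads in all samples of its generation. Columns of unmethylated reads (120) and the authors' own calls were not used.

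Groups came from the labels, and F2 rams were joined to their F0 sire and between assays by the numbers in the titles. Counts were filtered (minimum 15 in over 10 rams), normalised by TMM and compared with edgeR 4.0.16 (quasi-likelihood, Benjamini-Hochberg over all genes, R 4.3.3) or DESeq2 1.42.0. Correlations used log2(CPM + 0.5) and two-sided permutation tests with 100000 resamples (exact under 10 rams). DMCs were called by the likelihood-ratio test of a logistic model on summed reads with Benjamini-Hochberg adjustment over all cytosines of a context, and with limma 3.58.1 on levels as an alternative. The interval of GK2 came from the gene locations that the study's supplement gives. The steps for the RNA fits, the correlations and the DMC calls were tested on simulated data. The 9 genes, the marker and energy lists and the tests were chosen with earlier results of these data known. Named genes are the 9 genes, the 8 highest mean levels and the 3 highest and 3 lowest fold changes of the energy list, the 2 highest of each marker list, the 5 most and 5 least like the testis forms, and DMCs near a gene in at least 2 generations. PDK4, the 7 energy genes with an r over 0.7, PGAM1, PDHA1, ENO1, HK1, GK5 and the CG cytosine called in F0 alone fall outside this rule and were named after their values were seen. The parting of the leukocyte-poor rams, member pairs and energy genes with no TMM factor, the correlations with the library total, the correlation of GK2 with its cytosine, the shares of other genes beside the marker relations and the sire block for methylation were added after the data had been seen. Rams of one line are separate animals, but 2 share each F0 sire and its F1 son as their sire, and p-values take no account of it unless stated.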

Additional observations from a re-analysis of the deposited data

Results flagged for a closer look

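Methionine-line ram 7 was set apart from the other 9 rams of its line by the gap to the nearest of them in 3 values. Its PGK1 level was 0.39 and its LDHA level -1 on the scale of log2(CPM + 0.5), with a gap of 0.559 and 0.747 of the whole range of the line, and its log2 ratio of PGK2 over PGK1 was 4.54, with a gap of 0.487. The LDHA value stands for 0 counts and the PGK1 value for 2 counts. Each gap passed the critical value of Dixon's test for 10 rams. Of the rams of a line, 22 groups of values were examined, and chance alone sets apart a sample in about 1 in 20 groups. In this ram the summed leukocyte markers were 281 CPM, against 4217 CPM or more in the other rams of the line. Their part in the PGK1 and LDHA values was not tested.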

How the results depend on the processing

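Under all alternatives run (DESeq2 factors or the DESeq2 test, upper-quartile factors, no filter, counts summed per sire, sire pairs as a block, marker covariates, each ram left out, both leukocyte-poor rams left out) 0 genes, 0 of the 8 genes and 0 of the energy list were called between the lines. Signs of the small log2 fold changes turned for GAPDH with upper-quartile factors (0.073), sums per sire (0.23), the block of consecutive sire numbers (0.14) and covariates (0.088), for PGK2 with sums per sire (-0.040), and with covariates for PGK1 (0.17) and LDHA (0.058). With each ram left out in turn they ran from -0.21 to 0.84 for GAPDHS, -0.011 to 0.39 for PGK2, -0.16 to 0.84 for GK2, -0.44 to -0.13 for ENO4, -0.32 to 0.34 for GAPDH, -0.37 to 0.11 for PGK1, -0.68 to 0.24 for LDHA and -0.064 to 0.38 for LDHB. The median log2 ratios kept their sign throughout. The number of marker relations that passed ran from 22 to 31 with 1 ram left out. With no TMM factor LDHB turned with the spermatid (0.316), leukocyte (-0.0954), squamous (-0.332), simple epithelium (-0.171) and testis somatic markers (0.662), PGK1 with the squamous (-0.131) and simple epithelium markers (-0.144), and LDHA with both (-0.25 and -0.146). LDHB with the testis somatic markers also turned without the leukocyte-poor rams (0.0708). With 1 ram left out, r ran from -0.324 to 0.0187 for LDHB with the testis somatic markers (turning without control ram 10) and from -0.265 to 0.000323 for PGK2 with the squamous markers (turning without methionine-line ram 5). The cause was not tested.

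DMC counts near GK2 fell from 1 to 0 for the F0 CG cytosine at 25 points, in the 2 kb window, at 20 reads, with limma and without F0 control ram 1 or 2 (0 to 1 over the samples left out), for the CHH cytosine with limma in every generation, for both with limma and consecutive sire numbers as a replicate block (0), and in F2 also at 25 points and 20 reads. The CHH calls of F0 and F1 were 1 with each sample left out. The relation of CG methylation near GK2 with its RNA could not be run, and the other genes' windows were not analysed here.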
